A study of Hapsidospora chrysogena with 9 samples.

Results

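The 163 genes described here stood higher in mycelium of an AcmybA overexpression strain than in both an AcmybA knockout strain and the wild type, while knockout and wild type were close on average. They were taken from 8899 genes of the mould Hapsidospora chrysogena, long known as Acremonium chrysogenum. Levels were taken as log2(FPKM + 1), where FPKM is the number of fragments scaled by transcript length and library depth. Of the 7360 genes with a mean of 10 FPKM or more over 9 libraries, 904 (12.3%) were above both other strains in overexpression at each of 3 times. A mean log2 difference of at least 0.75 between overexpression and wild type left 272 of them. A mean difference under 0.5 in size between knockout and wild type left the 163 members, 2.21% of the 7360. The last step took out 33 genes that were higher and 76 that were lower in the knockout than in wild type.

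The members were thus chosen on the differences between strains themselves. Those differences are given below as levels and sizes, with no test. Comparisons between culture times, which the choice of members did not use beyond the order of strains at each time, were tested.

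Myb proteins are transcription factors that bind DNA through repeats of the Myb domain, and in fungi they take part in the control of growth, sporulation and secondary metabolism. H. chrysogena is grown industrially for cephalosporin C, a beta-lactam antibiotic and starting material for semisynthetic cephalosporins. Overexpression and knockout of a regulator move its dose in opposite directions, and a transcript can respond to the excess without responding to the loss.

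Each strain was sampled at 48, 72 and 96 h in LPE medium, with 1 library of polyadenylated RNA per strain and time. The labels name the strains by genotype, as AcmybA overexpression, AcmybA knockout and wild type, and give neither the promoter behind the overexpression nor the number of transformants. AcmybA was not looked up among the members, because the table pairs its protein identifiers with no gene name. For the same reason no function is given for any member. With 1 library per strain and time, p-values are not set against a spread between repeated cultures. Those for changes over time are set against departure from additive effects of strain and time, and those for slopes against departure from a straight line within each strain.

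Summed FPKM ran from 852915 in overexpression at 96 h to 1124539 in overexpression at 48 h, and median FPKM from 37.0 to 41.5. The files give no read numbers. Low values step in whole reads, and their steps put the depth of overexpression at 48, 72 and 96 h at 1.77, 2.39 and 2.23 times that of wild type at 96 h. By the same estimate it was 2.39, 0.829 and 0.892 in the knockout, and 0.930 and 0.949 in wild type at 48 and 72 h. The value for overexpression at 48 h was the least certain, since 3.54 came next with a log likelihood only 3.59 lower. The 3 overexpression libraries and the knockout library at 48 h were thus estimated deeper than the others, and the part of depth in the differences below was not tested. Among the members, 156 had a mean of 10 FPKM or more over the 6 knockout and wild-type libraries alone, 0 were listed at 0 in any library, and 1 was under 1 FPKM in a library. KFH42460.1, KFH42494.1 and KFH44763.1, described below, reached that mean only through overexpression. Their knockout and wild-type means were 6.55 and 9.78, 6.85 and 6.91, and 6.12 and 9.44 FPKM.

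The members were mostly moderate transcripts. Their mean over the 3 overexpression libraries was 20 to 50 FPKM for 48 genes, 50 to 100 for 47, 100 to 300 for 47, 300 or more for 16 and under 20 for 5. Summed over the members, FPKM amounted to 1.77%, 2.25% and 2.52% of the total in overexpression at 48, 72 and 96 h. It amounted to 1.07%, 0.910% and 0.945% in the knockout and 0.810%, 1.02% and 1.03% in wild type. The share was thus higher in overexpression at each time, as the choice of members requires.

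Over the 163 genes, the mean log2 difference between overexpression and wild type had a median of 0.98, with a range from 0.75 to 2.38. It was at least 1 for 75 genes, at least 1.5 for 16 and at least 2 for 4. Against the knockout the median was 0.97 and the range 0.31 to 2.26. The knockout lay above wild type on average for 92 members and below it for 71, with a median log2 difference of 0.04. For 87 of the 163, each overexpression library was above each knockout and wild-type library whatever the time, against 354 of the 7360 genes (4.81%). The members were chosen on this contrast, so nothing is read from that share.

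**Figure D1:**
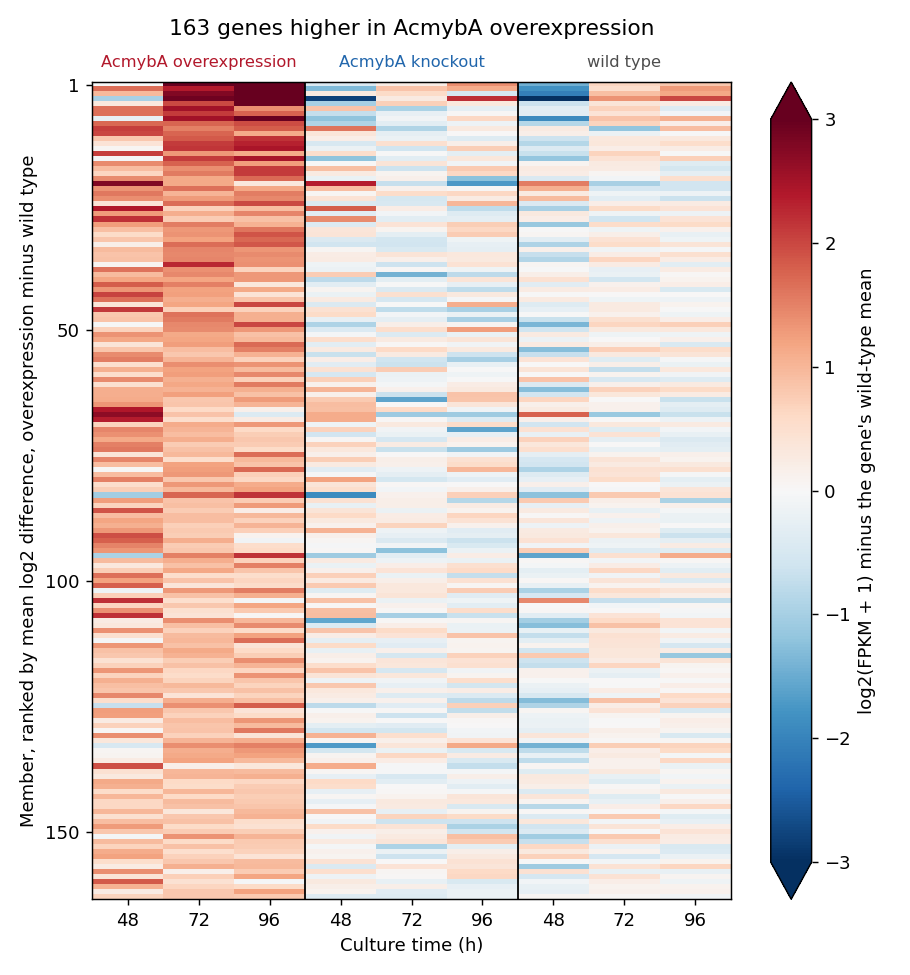
Heat map of the 163 members (rows, ranked by mean log2 difference between overexpression and wild type) in 9 libraries (columns, 3 times for overexpression, knockout and wild type). Colour is log2(FPKM + 1) minus the gene's mean over the 3 wild-type libraries, clipped at 3 in either direction. The overexpression columns are red in most rows, while knockout and wild-type columns are pale with single libraries that depart, most often at 48 h.

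The 10 members with the largest mean difference from wild type included genes whose levels in overexpression were much higher at 96 h than at 48 h and genes that were more even over time. KFH49017.1 reached 14.4, 120 and 269 FPKM in overexpression at 48, 72 and 96 h, against 10.2, 16.7 and 39.0 in the knockout and 4.60, 22.7 and 25.6 in wild type. Its mean log2 difference from wild type was 2.38 (SD over the 3 times 0.94), and the gap between overexpression and the other strains was narrowest at 48 h. KFH48455.1 stood at 51.7, 84.8 and 133 FPKM in overexpression, 5.60, 28.7 and 34.6 in the knockout and 3.69, 22.8 and 38.5 in wild type, a log2 difference of 2.37 (SD 0.97). Here overexpression at 48 h was already above all knockout and wild-type libraries.

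KFH45653.1 measured 134, 465 and 685 FPKM in overexpression, 82.4, 101 and 47.2 in the knockout and 15.5, 126 and 151 in wild type, a log2 difference of 2.36 (SD 0.60). Its knockout and wild-type means were close only because they crossed: the knockout was higher than wild type by 2.34 log2 units at 48 h and lower at 96 h, by a log2 difference of -1.65. KFH43243.1 reached 7.11, 120 and 283 FPKM in overexpression, 1.28, 18.3 and 73.6 in the knockout and 0.552, 40.0 and 63.7 in wild type. Its log2 difference from wild type was 2.03 (SD 0.42), and all 3 strains were far lower at 48 h than later. KFH45542.1 stood at 14.5, 48.5 and 129 FPKM in overexpression, 5.23, 19.5 and 14.5 in the knockout and 7.01, 15.3 and 13.8 in wild type. Levels at 96 h were above those at 72 h in overexpression but not in the other strains.

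KFH42494.1 measured 22.3, 41.3 and 18.5 FPKM in overexpression, 12.5, 2.87 and 5.16 in the knockout and 4.99, 11.1 and 4.69 in wild type. The log2 difference from wild type, 1.85, was nearly the same at each time (SD 0.10), although levels differed between times in all strains. From the knockout it was uneven, at 0.78, 3.45 and 1.66 at 48, 72 and 96 h. KFH43736.1 reached 55.5, 76.3 and 60.9 FPKM in overexpression, 9.99, 14.2 and 17.4 in the knockout and 13.4, 23.1 and 15.9 in wild type, a log2 difference of 1.84 (SD 0.15). It had the widest margin of all members, since overexpression was at least 1.68 log2 units above the higher of the other strains at each time. KFH42460.1 stood at 5.71, 43.7 and 70.0 FPKM in overexpression, 2.36, 6.25 and 11 in the knockout and 1.06, 13.0 and 15.3 in wild type.

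KFH44763.1 was nearly flat in overexpression, at 30.3, 31.0 and 36.1 FPKM, against 4.14, 6.71 and 7.52 in the knockout and 4.25, 14.2 and 9.90 in wild type. KFH41307.1 measured 71.7, 48.7 and 59.8 FPKM in overexpression, 51.5, 8.25 and 20.4 in the knockout and 19.8, 6.62 and 32.0 in wild type. The knockout at 48 h stood above overexpression at 72 h for this gene, so its overexpression and knockout libraries overlapped when times were set aside.

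**Figure D2:**
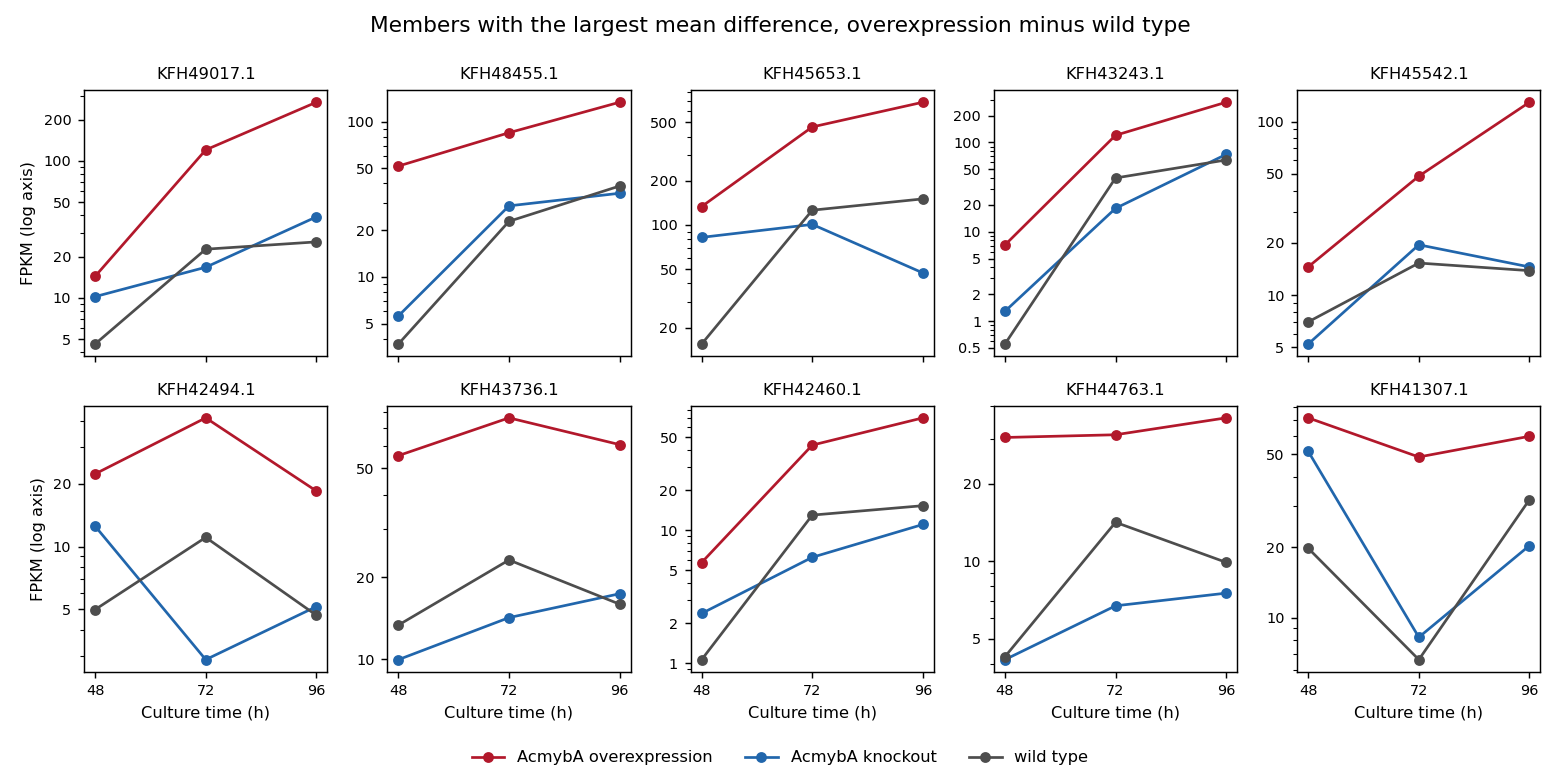
FPKM (log axis) against culture time for the 10 members with the largest mean log2 difference between overexpression and wild type, 1 point per library. Overexpression is the upper line in each panel, and the knockout and wild-type lines cross in most panels, by the widest gaps for KFH45653.1.

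Wide and steady margins were rare. For 7 of the 163 members overexpression was at least 1 log2 unit above both strains at each time, for 53 at least 0.5, and for 24 the narrowest margin was under 0.1. After KFH43736.1, the widest were KFH43243.1 at 1.56, KFH48455.1 at 1.53 and KFH43168.1 at 1.33. KFH43168.1 reached 257, 327 and 228 FPKM in overexpression, 96.9, 124 and 89.0 in the knockout and 102, 116 and 74.1 in wild type, a log2 difference from wild type of 1.48 (SD 0.14). Its time course had the same shape in the 3 strains, with the highest level at 72 h in each.

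The 6 most abundant members in overexpression were led by KFH48241.1, at 1757, 494 and 409 FPKM in overexpression, 749, 353 and 262 in the knockout and 381, 345 and 312 in wild type. Most of its difference lay at 48 h, where overexpression was 2.20 log2 units above wild type, against 0.52 and 0.39 at 72 and 96 h. KFH40471.1 went the other way over time, at 113, 781 and 1059.5 FPKM in overexpression, 62.6, 255 and 388 in the knockout and 98.9, 407 and 317 in wild type. Its log2 difference between overexpression and wild type was 0.19 at 48 h, 0.94 at 72 h and 1.74 at 96 h.

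KFH46521.1 stood at 224, 823 and 889 FPKM in overexpression, 94.8, 402 and 686 in the knockout and 116, 519 and 497 in wild type. All 3 strains had their lowest level at 48 h, and overexpression kept a log2 difference from wild type of 0.67 to 0.94 at each time. The gap to the knockout was not kept, and was narrowest at 96 h, with 889 against 686 FPKM. KFH48801.1 measured 862, 640 and 474 FPKM in overexpression, 505, 292 and 104 in the knockout and 431, 243 and 294 in wild type. KFH43145.1 reached 402, 609 and 561 FPKM in overexpression, 261, 243 and 267 in the knockout and 119, 344 and 254 in wild type. Each overexpression library of KFH43145.1 was above each library of the other strains, whereas for KFH48801.1 the knockout at 48 h was above overexpression at 96 h. KFH47804.1 stood at 470, 505 and 750 FPKM in overexpression, 319, 396 and 322 in the knockout and 108, 437 and 388 in wild type, with a margin of only 0.21 log2 units at 72 h.

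**Figure D3:**
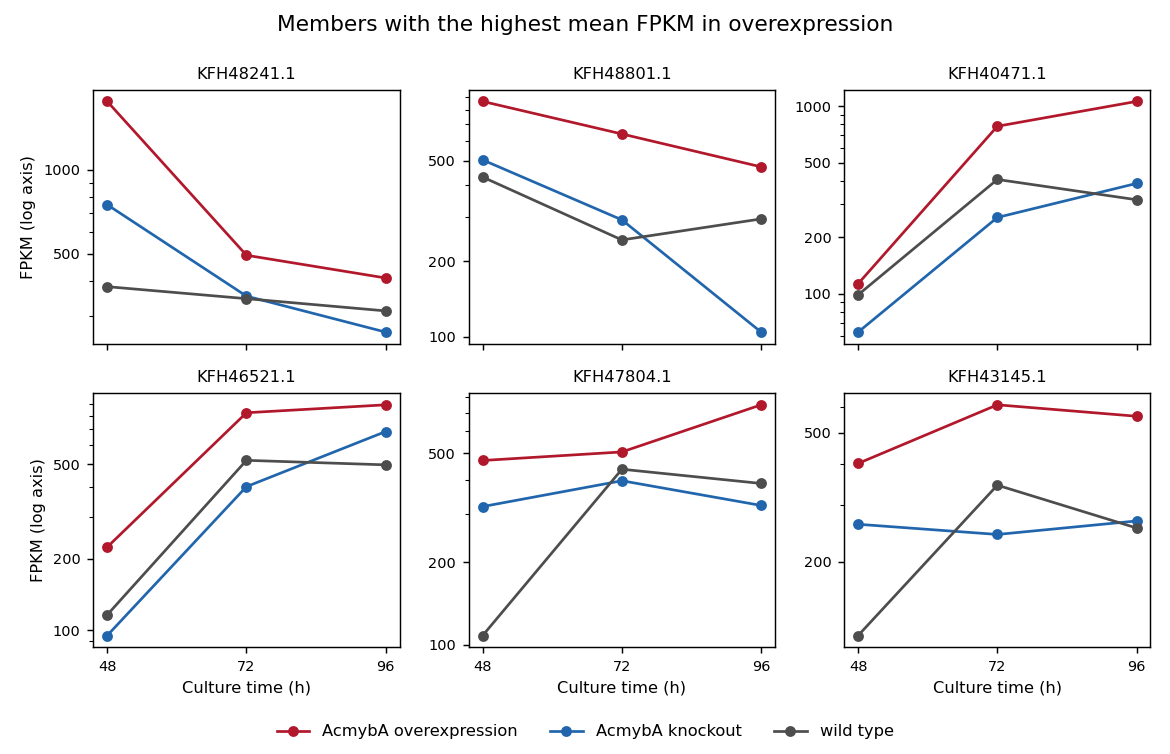
FPKM (log axis) against culture time for the 6 members with the highest mean FPKM in overexpression, 1 point per library. Against wild type, KFH48241.1 has its widest gap at 48 h, KFH40471.1 at 96 h, and KFH46521.1 keeps a similar gap on the log axis at the 3 times. The overexpression and knockout lines of KFH46521.1 come closest at 96 h.

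The members' differences were compared at each time. Against wild type, the median log2 difference over the 163 members was 1.09 at 48 h, 0.90 at 72 h and 0.98 at 96 h. Against the knockout it was 0.77, 1.13 and 0.99. The order of times against wild type turned with the scaling: the medians at 48, 72 and 96 h were 0.99, 1.08 and 1.17 with equal FPKM totals, 0.97, 0.85 and 0.98 with median-of-ratios rescaling and 0.93, 0.94 and 1.06 with quantile normalisation, each highest at 96 h. Against the knockout the median at 48 h was the lowest of the 3 times under each scaling. Over the 7360 genes the medians against wild type were 0.12, 0.06 and -0.01, and against the knockout 0.05, 0.03 and -0.00. The margin over the higher of both strains had a median of 0.65, 0.80 and 0.78 at 48, 72 and 96 h, and was smallest at 48 h for 75 members, at 72 h for 38 and at 96 h for 50.

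Among the members, the difference between knockout and wild type also changed over the times. The choice of members used these values, through the strain means, so nothing is read from the members' shares below. At 48 h the knockout was above wild type for 113 members (69.3%), with a median log2 difference of 0.34, against 57.3% and 0.09 for the 7360 genes. At 72 h it was above wild type for 56 members (34.4%), with a median of -0.19, against 51.2% and 0.01. At 96 h it was above for 81 members (49.7%), with a median of -0.00. Under the other scalings the median stayed above 0 at 48 h and below 0 at 72 h, but at 48 h it was 0.39 with equal FPKM totals, 0.23 with median-of-ratios rescaling and 0.10 with quantile normalisation. Closeness of knockout and wild type was therefore closeness on average: 40 members kept the strains within 0.5 log2 units at all 3 times, 38 had them at least 1 unit apart at some time, and 41 had the knockout at least 0.5 above at one time and at least 0.5 below at another. As depth was also estimated higher in the knockout library at 48 h than in those at 72 and 96 h, its part in this shift was not tested.

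**Figure D4:**
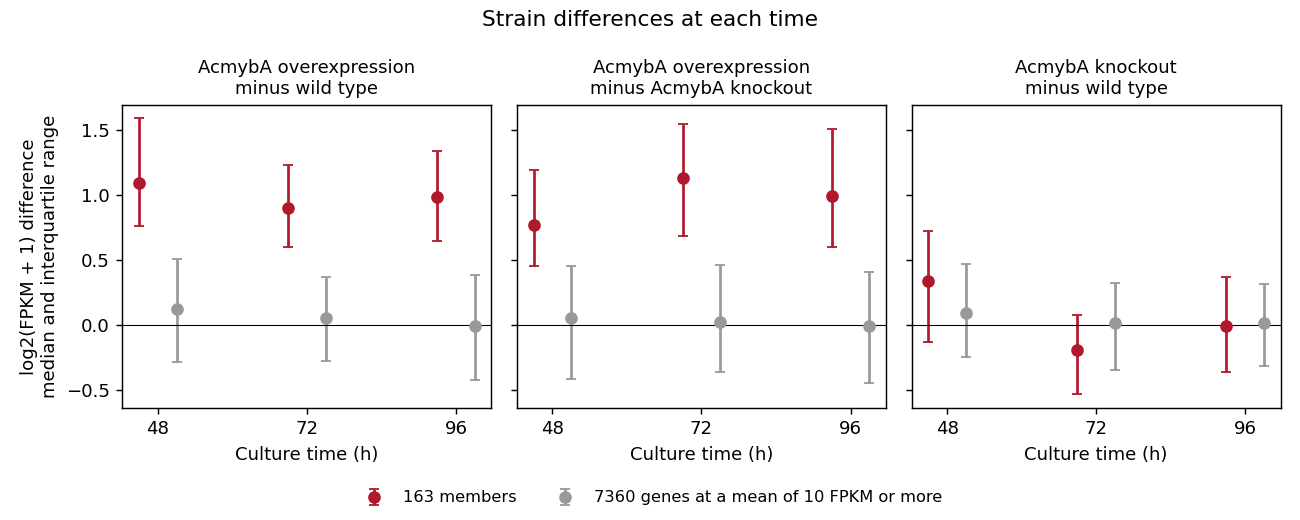
Median and interquartile range over genes of the log2(FPKM + 1) difference between strains at 48, 72 and 96 h, for the 163 members (red) and the 7360 genes at a mean of 10 FPKM or more (grey). The members' medians for overexpression lie between 0.77 and 1.13 in the left and middle panels. In the right panel they move from 0.34 at 48 h to -0.19 at 72 h for the knockout against wild type.

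Membership near the thresholds rested on small differences. KFH42710.1 and KFH47207.1, at log2 differences from wild type of 0.753 and 0.754, were just inside, and KFH40966.1 and KFH43501.1, at 0.748 and 0.747, just outside. In the difference between knockout and wild type, KFH46467.1 at -0.496 and KFH46703.1 at 0.495 were inside, while KFH45215.1 and KFH41614.1, both at -0.505, were outside. KFH45215.1 measured 327, 840 and 1464 FPKM in overexpression, 72.2, 168 and 145 in the knockout and 241, 166 and 128 in wild type, so the threshold left out a gene with a log2 difference from wild type of 2.09.

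KFH41486.1 was at 19.5 FPKM at 72 h in both overexpression and wild type and stayed in by a log2 margin of 0.000705, and KFH42348.1 stayed in by 0.00265 over the knockout at the same time. On the other side, KFH43005.1 measured 58.2 FPKM in overexpression at 96 h, just under the 58.7 in the knockout. KFH41618.1 was listed at 0 in all libraries except overexpression at 72 and 96 h, with 89.3 and 75.7 FPKM, and fell outside because overexpression was also listed at 0 at 48 h. By mean level, KFH44719.1 and KFH40861.1, at 10.6 and 12.3 FPKM over the 9 libraries, were nearest inside, and KFH42721.1 and KFH44722.1, at 9.49 and 8.75, nearest outside.

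Which genes met the rule also depended on the libraries. Without overexpression at 48 h 366 genes met it, of which 123 were among the 163, and without wild type at 48 h 167 met it, of which 90 were among the 163. With any other library left out, 163 to 241 genes met it, and 122 to 141 of the members were kept. In all, 33 of the 163 met the rule whichever library was left out. With equal FPKM totals 216 genes met it, of which 144 were members, with median-of-ratios rescaling 125, of which 122 were members, and with quantile normalisation 155, of which 129 were members. Equal totals also moved the median log2 difference between overexpression and wild type over all tested genes, to 0.23 at 72 h and 0.19 at 96 h, against 0.05 and 0.01 with the deposited values.

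Changes over culture time shared by the 3 strains were then tested with limma, fitted on 8482 genes with strain and time as factors and two-sided Benjamini-Hochberg adjustment over all of them. Between 48 and 96 h, 20 members rose and 10 fell. The 20 that rose were 12.3% of the members, against 508 of 8482 genes (5.99%), or 465 of the 7354 tested genes with a mean of 10 FPKM or more (6.32%). The 10 that fell were 6.13%, against 525 (6.19%) and 510 (6.94%), so the share that fell was near that of all genes. The median log2 change over the 163 members was 0.06, against -0.06 over the 8482 genes. The choice of members used the order of strains at each time, which bears on the departure from additivity behind these tests. Nothing is therefore read from the larger share that rose.

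KFH43243.1 rose most, by 5.18 log2 units (SE 0.31, limma adjusted p = 0.00258), higher at 96 h in 3 of 3 strains. Its change was 5.13 in overexpression, 5.03 in the knockout and 5.38 in wild type, and its call held in each of 17 alternatives (adjusted p from 0.00116 to 0.0410). At 48 h its wild-type level was only 0.552 FPKM. The estimated rise was 3.95 with 5 added before the log in place of 1, and 5.88 with 0.1 added. KFH42460.1 followed with 2.74 (SE 0.37, limma adjusted p = 0.0119) and KFH49017.1 with 2.74 (SE 0.47, limma adjusted p = 0.0193). As given above, KFH42460.1 reached the mean level of the rule only through overexpression. For KFH49017.1 the change was 4.13 in overexpression, 1.84 in the knockout and 2.25 in wild type. KFH40471.1 rose by 2.50 (SE 0.30, limma adjusted p = 0.0103).

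KFH40351.1 rose by 2.37 (SE 0.36, limma adjusted p = 0.0144), with levels of 68.2, 377 and 601 FPKM in overexpression, 62.9, 107 and 154 in the knockout and 43.3, 185 and 286 in wild type. At 48 h its overexpression and knockout levels nearly met, with a log2 margin of 0.11. Over the 20 rising members the median log2 change was 1.94 in overexpression, 1.51 in the knockout and 1.65 in wild type, and the largest of the 3 changes was that of overexpression for 12 genes, of the knockout for 3 and of wild type for 5. The choice of members used the order of strains at each time, and all called genes were not counted this way. Nothing is therefore read from these counts.

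Among the falling members KFH40800.1 changed most. Its levels were 391, 124 and 70.9 FPKM in overexpression, 292, 34.6 and 16.4 in the knockout and 166, 28.3 and 37.4 in wild type. Its log2 change between 48 and 96 h was -2.88 (SE 0.39, limma adjusted p = 0.0119). KFH46067.1 reached 138, 38.6 and 15.5 FPKM in overexpression, 46.4, 9.29 and 9.37 in the knockout and 73.6, 9.04 and 12.8 in wild type, and its log2 change was -2.57 (SE 0.33, limma adjusted p = 0.0114). In both genes the larger part of the decrease came by 72 h in all 3 strains. KFH48405.1 fell by 1.82 on the log2 scale (SE 0.28, limma adjusted p = 0.0150), with levels of 104, 31.5 and 21.0 FPKM in overexpression, 41.2, 19.1 and 19.9 in the knockout and 61.0, 13.2 and 12.7 in wild type.

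KFH47446.1 and KFH40553.1 changed by -1.18 and -1.11 log2 units (limma adjusted p = 0.0417 and 0.0433), lower at 96 h in 3 of 3 strains, and lost their calls in 12 of 17 alternatives each, among them every left-out library (adjusted p over the 17 from 0.0391 to 0.184 and from 0.0443 to 0.235). KFH40553.1 stood at 198, 120 and 51.7 FPKM in overexpression, 58.7, 41.4 and 35.6 in the knockout and 76.4, 49.5 and 46.6 in wild type, so that overexpression nearly reached wild type at 96 h. Over the 10 falling members the median log2 change was -1.0 in overexpression, -1.17 in the knockout and -1.04 in wild type. The change largest in size was that of overexpression for 4, of the knockout for 4 and of wild type for 2.

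**Figure D5:**
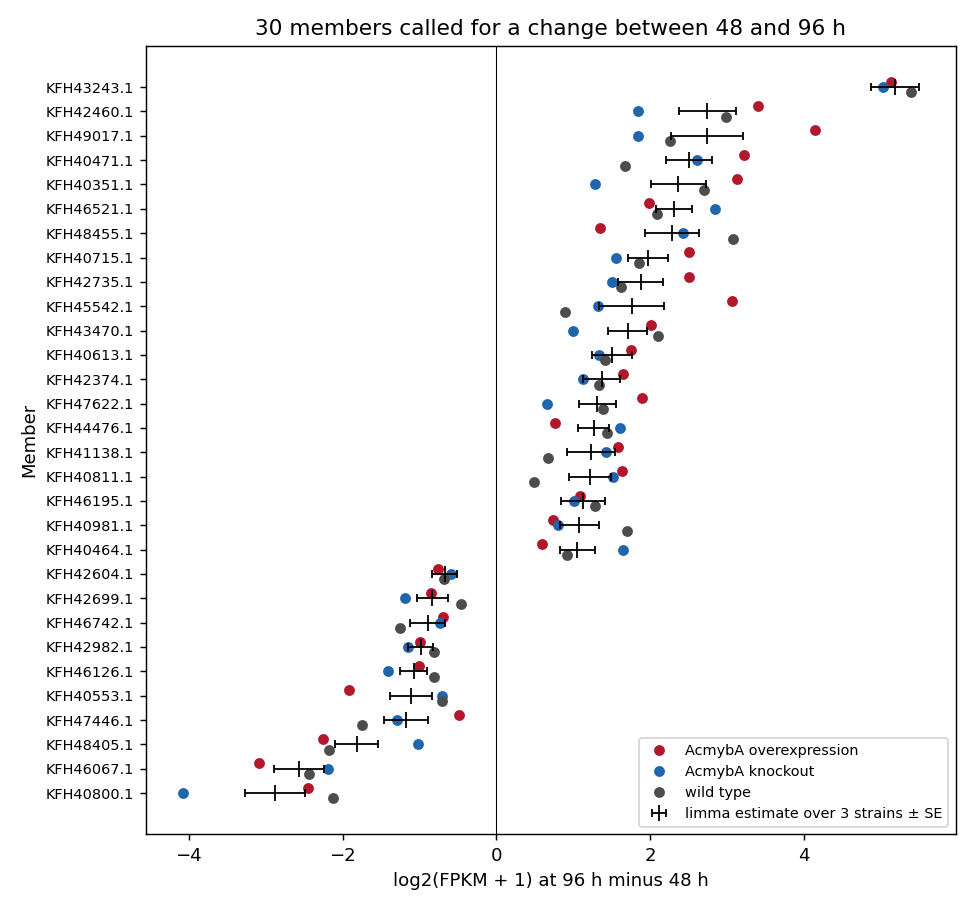
Change in log2(FPKM + 1) between 48 and 96 h for the 30 members called by limma, with 1 point per strain and the estimate over the 3 strains with its SE in black. All points of the 20 rising genes lie right of 0 and all points of the 10 falling genes left of it, as a call nearly requires, and KFH43243.1 stands apart at 5.18.

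These counts rested on single libraries. Without overexpression at 96 h 4 members rose and 1 fell, and without the knockout at 96 h 7 rose and 3 fell. Calls over all tested genes dropped as well, from 508 higher and 525 lower to 57 and 39 without overexpression at 96 h. Without the knockout at 96 h they were 72 and 52. Without wild type at 48 or 96 h 9 and 11 rose, and without overexpression at 48 h 11. Over all tested genes, 164, 164 and 210 rose in these fits. Those that fell numbered 5 without overexpression at 48 or 72 h, the knockout at 48 or 72 h or wild type at 72 h, and 4 without wild type at 96 h. With wild type at 48 h left out 10 fell, of which only 5 were among the 10 called with all libraries. Over all tested genes, 39 to 411 fell with 1 library left out. Of the 20 and 10, 3 and 1 were called whichever library was left out. Of the named genes, KFH42460.1, KFH40351.1, KFH40800.1, KFH48405.1 and KFH49017.1 lost their calls without overexpression at 96 h, KFH48405.1 also without wild type at 96 h, and KFH49017.1 also without the knockout at 96 h or wild type at 48 h. With equal FPKM totals 21 rose and 5 fell, so the split between rising and falling members moved from 20 and 10. Over all tested genes it was 498 and 260 with equal totals.

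By 72 h, 8 members were higher and 3 lower than at 48 h (limma, adjusted as above), or 4.91% and 1.84% of them. Of the 8482 genes, 148 (1.74%) were higher and 62 (0.731%) lower, and of the 7354 at a mean of 10 FPKM or more, 1.99% were higher and 0.816% lower. For the reason given for 96 h, nothing is read from the larger shares of the members. All 11 called members were also called at 96 h. The higher members numbered 13 without the knockout at 48 h, 2 without the knockout at 72 h, 5 without overexpression at 48 h, 1 without overexpression at 72 h and 4 without it at 96 h. Without wild type at 48, 72 or 96 h they numbered 2, 0 and 3. The lower members numbered 3 without the knockout at 48 or 96 h, 1 without overexpression at 72 or 96 h or wild type at 96 h, and 0 without each of the other libraries. Over all tested genes, the same fits called 0 to 257 higher and 0 to 65 lower at 72 h.

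The time of the highest level was spread over the 3 times in each strain. In overexpression 66 members (40.5%) were highest at 48 h, 36 (22.1%) at 72 h and 61 (37.4%) at 96 h, against 48.4%, 20.6% and 31.0% of the 7360 genes. In the knockout the shares were 44.2%, 18.4% and 37.4%, against 44.7%, 23.1% and 32.3%, and in wild type 30.7%, 36.8% and 32.5%, against 41.5%, 30.2% and 28.2%. Overexpression was highest at the same time as wild type for 79 members (48.5%, against 48.0% of the 7360) and at the same time as the knockout for 91 (55.8%, against 47.7%). Levels were successively higher at 72 and 96 h in overexpression and in neither other strain for 18 members, against 933 of the 7360 genes, and successively lower at 72 and 96 h in overexpression and in neither other strain for 18, against 1110. These shapes rest on 1 library per strain and time and were not tested. Because the choice of members used the strain means and the order at each time, nothing is read from the members' shares.

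Whether the time course differed between strains was tested as a difference in slope per 24 h, with a mean and a slope for each strain. No member was called, 0 of 163 for overexpression against wild type, overexpression against the knockout or the knockout against wild type, and limma called 0 of 8482 genes in each. On simulated data the test called, in the same order, 10%, 2% and 16% of slope differences of 1 log2 unit per 24 h. At 2 units it called 62%, 62% and 72%. The absence of calls therefore does not show that the slopes were equal. At an unadjusted p under 0.05 there were 20 members for overexpression against wild type, 6 with a higher and 14 with a lower slope, or 12.3% against 9.34% of all genes. For overexpression against the knockout there were 10 (6.13% against 9.89%), and for the knockout against wild type 15, of which 14 had a lower slope in the knockout (9.20% against 5.51%). Since the choice of members used the strain means and the order at each time, nothing is read from these shares. Slope differences between overexpression and wild type ran from -1.43 to 1.09 log2 units per 24 h over the members.

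The smallest unadjusted p for overexpression against wild type belonged to KFH43514.1, named after its values were seen. Its levels were 37.9, 72.0 and 104.8 FPKM in overexpression, 29.0, 25.4 and 37.1 in the knockout and 27.9, 24.8 and 19.5 in wild type. Its slope difference was 0.97 log2 units per 24 h (SE 0.23, limma adjusted p = 0.427), which did not pass the threshold.

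Identifiers of the table form 1 unbroken run of 8899 numbers, and 4 pairs of members had consecutive numbers. The count was not set against that of other gene sets of this size, so nothing is read from it. The files do not say whether consecutive numbers lie side by side in the genome. KFH42537.1 measured 65.9, 44.4 and 37.9 FPKM in overexpression, 25, 14.2 and 19.8 in the knockout and 24.9, 18.7 and 18.4 in wild type. Its partner KFH42536.1 reached 87.4, 102 and 83.3 FPKM in overexpression, 56.0, 34.1 and 79.7 in the knockout and 84.9, 62.9 and 22.0 in wild type. For this partner, overexpression nearly met wild type at 48 h and the knockout at 96 h. KFH46339.1 and KFH46340.1 had log2 differences from wild type of 1.17 and 0.93, KFH41988.1 and KFH41989.1 of 1.28 and 0.82, and KFH46409.1 and KFH46410.1 of 1.36 and 0.86.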

How the data were processed

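RNA from mycelium of 3 strains at 3 times was sequenced. Per the submitters' processing notes, CASAVA and HISAT2 2.0.5 were used, without a stated role. For the genome build, the annotation and the counter the entry is: not given in the sources used here. Values in the deposited table were treated as FPKM because they are not whole, and step by amounts that depend on gene and library. All 9 columns matched a library by title. FPKM values are not counts, so no count test was run.

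The 8482 genes that reached 1 FPKM in 3 or more libraries, among them the 163 members, were taken as log2(FPKM + 1), which understates the change of weakly expressed genes. With an intensity trend, limma 3.58.1 (R 4.3.3) fitted strain plus time (4 residual degrees of freedom), or a mean and slope per strain (3), and called genes at an adjusted p under 0.05. The fits and the depth estimate, a likelihood of whole-read ratios among genes under 2 FPKM, were tested on simulated data.

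The members and lists were chosen with earlier results of these data known. Named are the 10 members with the largest difference from wild type, the 6 most abundant in overexpression, the 5 largest called rises and falls, the 4 widest margins, consecutive identifiers, and 2 genes on each side of each threshold. Gene lists by name or product could not be applied, since identifiers carry no names. Scalings, pseudocounts, filters, the trend, the strain term and each library were varied. Slopes of the knockout against wild type, leaving out a whole time, and scalings of the differences at each time were added after seeing the data.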

Additional observations from a re-analysis of the deposited data

How the results depend on the processing

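Leaving out 1 library, which set strain means over unlike times against each other, gave 163 to 366 genes that met the rule. Over the 163 members it gave a median log2 difference between overexpression and wild type of 0.91 to 1.07. In the same fits, 4 to 21 members rose and 1 to 10 fell between 48 and 96 h, and 0 to 13 were higher and 0 to 3 lower at 72 h. Over all tested genes, 57 to 592 rose and 39 to 411 fell, and 0 to 257 were higher and 0 to 65 lower at 72 h. Without all libraries of 48 h 299 genes met the rule, 84 of them members, an alternative chosen after seeing the data. A minimum log2 difference from wild type of 1 left 75 members, and a limit of 0.25 between knockout and wild type 93. With equal FPKM totals 5 members fell by 96 h, and 260 of all tested genes did. Without the trend 6 members fell by 96 h, and 5 were higher and 1 lower at 72 h. Over all tested genes these counts were 432, 82 and 21. With no strain term 2 members rose and 0 fell by 96 h, and 0 were higher and 0 lower at 72 h. Over all tested genes that fit gave 56, 100, 0 and 5 in the same order. The causes were not tested. Slopes gave 0 called members under each alternative run for them, which leaves out the fit with no strain term, and no time change of a named member reversed. Other scalings, pseudocounts, floors and the filter kept each count within 1.5 times. Changes within 1 strain have no test, so no count is given for them. No paired analysis was possible by replicate number because each strain and time has 1 library; the strain term of the time tests is the only block by shared strain. Depth was estimated only up to a common factor, so the precision of single values is unknown.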
